A study of Mus musculus with 12 samples.

Results

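H3K9me3 was examined across a 5 Mb window of mouse chromosome 4, chr4:144000001-149000000 in mm10, that holds a cluster of zinc finger genes around Gm13152. The members are 485 of the 50654 regions in the authors' H3K9me3 table, namely every listed region that starts in the window, leaving out 17 regions assigned to a gene with a numbered Zfp symbol. Gm13152 is an older symbol of Zfp982 and stayed in. The window was chosen from this same KO against WT comparison, so its H3K9me3 values are given as a description, without a test.

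Chromatin was taken from neural progenitor cells grown as neurospheres from the ganglionic eminence of C57BL/6 mouse embryos at age E15.5, with 100000 nuclei entering each native ChIP-seq library. Nestin-KO (KO) cultures, by the study's title a loss of the histone methyltransferase SETDB1, were set against wild-type (WT) cultures. In mice, a Nestin driver acts in neural progenitors, so cells of other origin can keep the gene; the labels name no driver allele beyond "Nestin-KO" and none for the WT. No value used here measures Setdb1 itself, so the knockout rests on the labels. Each genotype has 3 animals for H3K9me3 and 3 for H3K27ac. For H3K9me3 all 3 KO animals were male, while 1 WT animal was male and 2 were female, so sex and genotype cannot be fully told apart there. A number in the H3K9me3 titles, whose meaning is not stated, is shared by 1 KO and 1 WT library, by 2 KO libraries alone and by 2 WT libraries alone, so it too cannot be fully told apart from genotype. The H3K27ac animals were 2 males and 1 female in either genotype.

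SETDB1 is an enzyme that methylates histone H3 at lysine 9, which makes H3K9me3, a mark of silenced chromatin. KRAB zinc finger proteins bind DNA, many of them at transposons, and bring in TRIM28, which recruits SETDB1. The genes for these proteins lie in tandem clusters, and such clusters are known to carry H3K9me3 themselves. H3K27ac marks active promoters and enhancers.

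Most promoters of the cluster's genes resemble each other. RefSeq holds 17 promoter windows (250 bases before to 50 after a start site, GRCm38.p6) for 14 genes of the cluster: numbered Zfp genes, Rex2 and Gm13212. The 15 bases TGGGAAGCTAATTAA, searched on both strands, were in 12 of the 17 windows, from 12 different genes. Of all 32851 RefSeq promoter windows of this length these 12 (0.0365%) were the ones that held it. The run was picked because it was the longest shared by these windows, so its count there is a description. Over the 66 pairs of the 12 windows, identity in local alignments of at least 208 bases ran between 72.8% and 99.7%, with a median of 87.0%. The windows without the run, among them those of Zfp993 and Zfp933, aligned to the 12 over at most 37 bases. Rex2 and Zfp979 were 98.6% identical over 294 aligned bases. With copies this close, a short read can match several places, and the treatment of such reads by the authors, not given in the sources used here, could move counts between copies.

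The promoters shown are those of 5 copies that each overlap a listed region, with the shared 15 bases in capitals. Zfp982 is the gene that the table calls Gm13152, and Zfp985 and Zfp984 are its neighbours Gm13154 and Gm13157. Zfp979, called 2610305D13Rik in the table, is the KRAB zinc finger gene known as Ssm1b, a strain-specific modifier of DNA methylation. Rex2 and Zfp979 are shown because the regions at their starts went the other way from those at the 3 others. The windows lie at chr4:147492167-147492466 (Zfp982, plus strand), chr4:147553027-147553326 (Zfp985, plus strand), chr4:147809739-147810038 (Zfp984, minus strand), chr4:147021600-147021899 (Rex2, plus strand) and chr4:147642459-147642758 (Zfp979, minus strand).
Zfp982: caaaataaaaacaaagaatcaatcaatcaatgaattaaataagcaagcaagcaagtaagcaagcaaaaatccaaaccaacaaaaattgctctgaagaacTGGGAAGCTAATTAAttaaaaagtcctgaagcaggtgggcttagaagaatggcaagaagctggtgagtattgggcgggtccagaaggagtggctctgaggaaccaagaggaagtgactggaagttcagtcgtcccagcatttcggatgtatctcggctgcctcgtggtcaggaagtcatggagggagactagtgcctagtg
Zfp985: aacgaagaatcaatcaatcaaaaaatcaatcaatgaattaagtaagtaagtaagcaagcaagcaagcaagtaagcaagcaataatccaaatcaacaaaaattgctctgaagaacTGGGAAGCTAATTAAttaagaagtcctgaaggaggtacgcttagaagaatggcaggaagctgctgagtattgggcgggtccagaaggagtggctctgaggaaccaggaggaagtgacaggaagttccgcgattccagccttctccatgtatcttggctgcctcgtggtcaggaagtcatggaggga
Zfp984: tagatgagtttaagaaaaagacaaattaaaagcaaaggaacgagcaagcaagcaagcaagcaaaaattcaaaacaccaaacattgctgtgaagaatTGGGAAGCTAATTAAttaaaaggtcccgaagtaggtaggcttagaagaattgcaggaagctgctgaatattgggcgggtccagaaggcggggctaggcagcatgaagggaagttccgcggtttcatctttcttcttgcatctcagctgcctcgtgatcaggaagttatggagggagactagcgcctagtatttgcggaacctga
Rex2: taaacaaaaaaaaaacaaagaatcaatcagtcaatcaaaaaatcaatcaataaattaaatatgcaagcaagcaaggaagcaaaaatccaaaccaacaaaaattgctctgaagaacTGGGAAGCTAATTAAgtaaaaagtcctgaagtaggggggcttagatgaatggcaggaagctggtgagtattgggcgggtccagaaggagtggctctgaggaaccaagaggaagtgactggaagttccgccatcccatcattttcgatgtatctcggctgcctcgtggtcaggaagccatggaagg
Zfp979: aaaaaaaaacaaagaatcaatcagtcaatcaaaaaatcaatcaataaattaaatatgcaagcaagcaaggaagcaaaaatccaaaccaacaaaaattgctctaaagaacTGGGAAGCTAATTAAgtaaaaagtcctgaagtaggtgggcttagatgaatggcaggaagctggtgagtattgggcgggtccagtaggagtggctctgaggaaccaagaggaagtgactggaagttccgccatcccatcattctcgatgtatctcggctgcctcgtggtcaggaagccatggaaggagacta

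The table lists 3 normalised counts per genotype for each region without naming the animal, so each is named by its place in the list, as in the first KO value. RefSeq gives Zfp982 other start sites too, without the shared run. Among them is a promoter that overlaps the listed region chr4:147496601-147500700, at -0.48 in the authors' deposited table. The region over the Zfp982 promoter shown had 125, 60.6 and 96.7 normalised counts in KO, against 142, 127 and 116 in WT. Its first KO value lay inside the WT range, and the log2 fold change in the authors' deposited table was -0.45. The Zfp985 promoter region had 237, 73.3 and 126 in KO and 222, 154 and 204 in WT, and stands at -0.41 in the authors' deposited table. Here the first KO value was the highest of the 6. The Zfp984 promoter region had 160, 63.2 and 74.8 in KO and 133, 130 and 103 in WT, at -0.30 in the authors' deposited table, again with the first KO value on top.

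The regions at the starts of Rex2 and Zfp979 were higher by the means. The Rex2 region had 283, 127 and 122 normalised counts in KO and 160, 131 and 151 in WT, and stands at 0.27 in the authors' deposited table. Its first KO value was high and the other two KO values were below all WT values. The Zfp979 region had 196, 117 and 163 in KO and 124, 104 and 116 in WT, at 0.47 in the authors' deposited table. KO and WT values overlapped in all 5 of these promoter regions, so in none of them were the genotypes fully separated. When the listed values are rescaled by their median ratio over all listed regions (median-ratio scaling), all 5 promoter regions are higher in KO.

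Of the 485 members, 320 were lower and 164 higher in KO at the authors' adjusted p of 0.05 or less, and 1 member missed that threshold. Over the whole table the same rule gave 71.1% lower and 28.9% higher, and the authors listed selected regions, so the counts carry no rate of change. The members had a median log2 fold change at -0.40 in the authors' deposited table, against -0.94 over the whole table. The KO and WT values did not overlap in 197 members (40.6%), 127 with all KO values below all WT values and 70 with all above. Of all listed regions, 74.4% did not overlap, 54.2% with KO below and 20.2% with KO above. The window was chosen on this contrast, so nothing is read from these shares.

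The direction of most members depends on the scaling. Median-ratio scaling takes its factors from the listed regions alone, as if the typical listed region did not change between genotypes. Of all listed regions 71.1% were lower as deposited, so regions with a smaller loss than most can turn higher by the scaling alone. Which scaling is nearer the true levels was not tested. Median-ratio scaling moved the log2 fold changes upward, by 0.79 at the median over all listed regions. The members' median then became 0.52, with 21 lower and 464 higher. The whole table's median became -0.17 under that scaling. Under either scaling the members' median lay above that of the table as a whole.

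The window is dense. It holds 502 listed regions with the numbered Zfp regions counted. On a fixed grid of 5 Mb windows, 556 had any listed region, with a median of 70, and 4 held more than 502. The window examined does not lie on that grid and was chosen from these data, so its rank is a description. The members fall into 3 stretches, whose borders were set at gene ends after the values had been seen. A first stretch of 1315.2 kb, up to the end of Tnfrsf8, holds PRAME and AADAC family genes and 100 members. The zinc finger stretch of 2534.0 kb, up to the end of Zfp933, holds 373 members that cover 38.0% of it. The distal stretch of 1150.9 kb holds 12 members, which cover 1.68% of it.

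**Figure D1:**
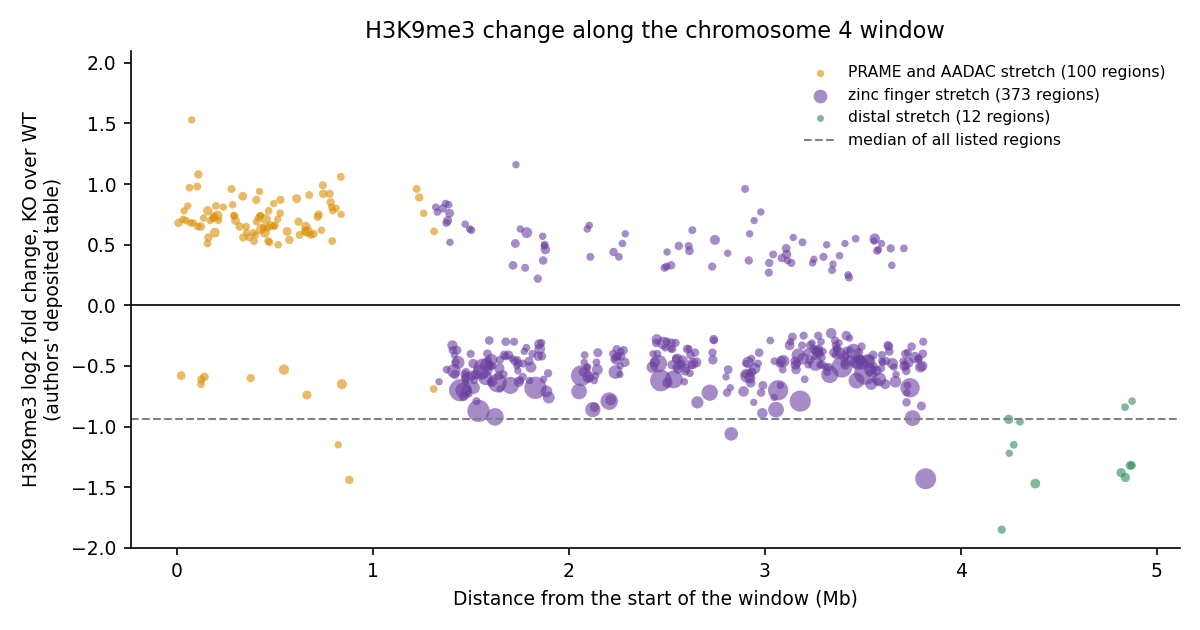
H3K9me3 log2 fold change (KO over WT, y axis, authors' deposited table) of each of the 485 members against its distance from the start of the window in Mb (x axis); point area grows with region length and the dashed line is the median of all listed regions, -0.94. Most of the 100 regions in the PRAME and AADAC stretch lie above 0, most of the 373 in the zinc finger stretch lie between 0 and the dashed line, and all 12 distal regions lie below 0; under median-ratio scaling the zinc finger stretch turns to a median of 0.47.

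In the zinc finger stretch H3K9me3 was high in both genotypes and, as deposited, lower in KO, a direction that median-ratio scaling reverses. The 373 members had a median of 67.6 normalised counts per kb in KO and 85.4 in WT, against 22.7 in KO and 41.3 in WT over the whole table. By sign 297 were lower and 76 higher, of which 75 passed the authors' threshold, with the median log2 fold change at -0.45 in the authors' deposited table and a range of -1.43 to 1.16. With median-ratio scaling the median was 0.47, with 7 lower and 366 higher. The summed normalised count was 98474, 58936 and 69844 in KO and 109817, 93324 and 108811 in WT, or 75751 ± 20420 against 103984 ± 9246 (SD, n = 3 each). The first KO sum lay inside the WT range and the other two lay below it. KO and WT values did not overlap in 123 of the 373, 110 with KO below and 13 with KO above. These are smaller shares than over all listed regions. There, 74.4% did not overlap, 54.2% with KO below and 20.2% with KO above.

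**Figure D2:**
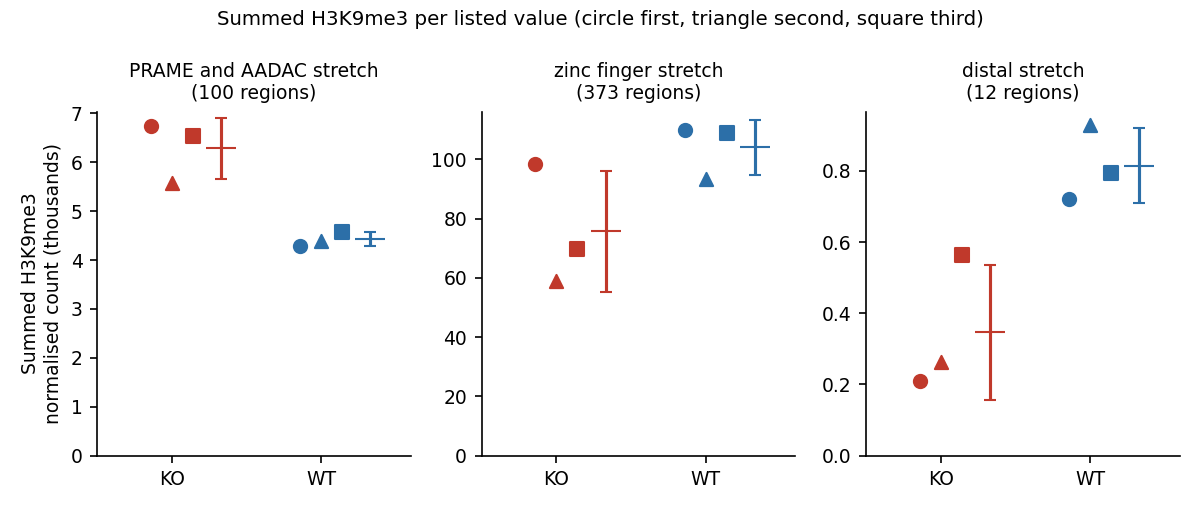
Summed H3K9me3 normalised count (divided by 1000, y axis, starting at 0) of each listed value in KO and WT (x axis) in the 3 stretches, with the mean and SD of the 3 values beside the points. The first KO value (circle) of the zinc finger stretch, 98474, sits among the WT sums, while all KO sums lie above WT in the PRAME and AADAC stretch and below WT in the distal stretch; under median-ratio scaling the regions of the zinc finger stretch turn higher in KO.

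By the median over regions, the first listed KO value ranked otherwise here than elsewhere. Per region its median log2 ratio to the WT mean was -0.11 in the zinc finger stretch, against -0.64 for the second KO value and -0.46 for the last. The first value was below all WT values in 145 of the 373 regions, the second KO value in 299 and the last in 242. In the regions outside the window that were lower in KO the first KO value had the lowest median, -1.92, against -1.47 and -0.60 for the other two. By this measure it was the nearest to WT in the zinc finger stretch and the farthest from it among those lower regions. By summed counts it was not: those lower regions summed to 26714928, 14667338 and 10089805 in KO and 27426982, 15211177 and 19719230 in WT. There too the first KO sum lay inside the WT range, and leaving it out took the log2 ratio of the sums to -0.75, against -0.28 with all 3. By region, though, the first KO value was below all WT values in 35169 of those 35692 lower regions. Their sums therefore do not stand for the typical region. The first KO value is also the shallowest, since the steps between low values give 44 reads per member at the median for it, against 171 and 108 for the other KO values and 67, 116 and 146 for WT. The part of depth in the result was not tested. In the zinc finger stretch the log2 ratio of the summed counts without the first KO value was -0.69, against -0.46 with all 3.

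**Figure D3:**
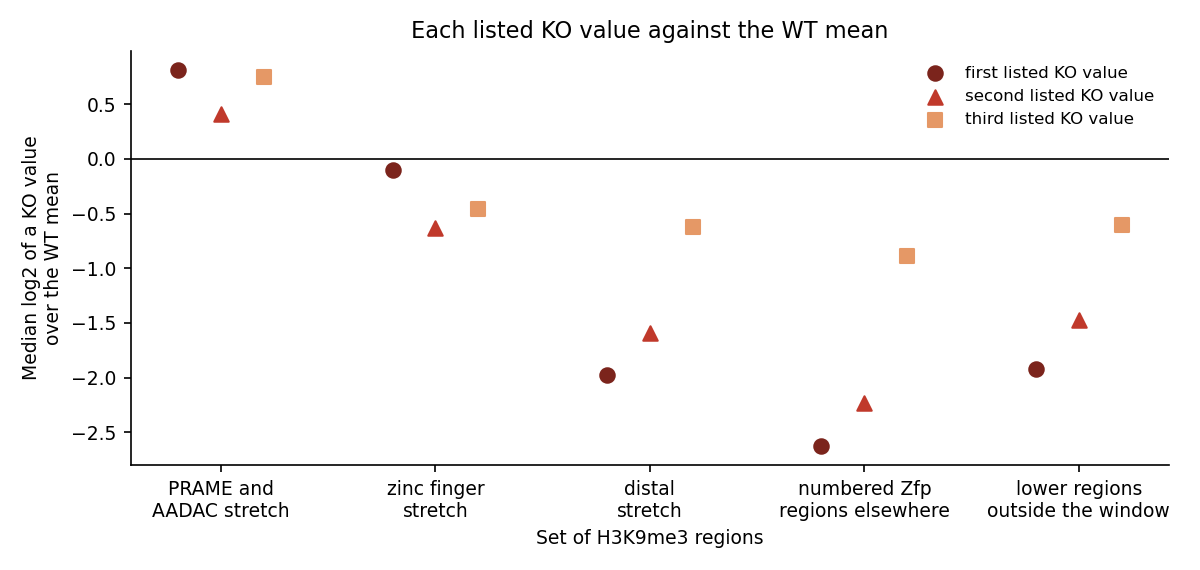
Median over regions of the log2 ratio of each listed KO value to the mean of the 3 WT values (y axis), for the 3 stretches, the numbered Zfp regions outside the window and all lower regions outside the window (x axis). The first KO value is at -0.11 in the zinc finger stretch and at -2.63 in numbered Zfp regions elsewhere, where it is the lowest of the 3; these are values as deposited, and median-ratio scaling moves the zinc finger stretch above 0.

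Zinc finger genes outside the window are set beside the cluster for comparison. The 349 listed regions assigned to numbered Zfp genes elsewhere in the genome had a median log2 fold change at -1.68 in the authors' deposited table. By sign 343 were lower and 6 higher. Against 74.4% of all listed regions, KO and WT values did not overlap in 315 (90.3%) of these 349. Under median-ratio scaling 338 of them stayed lower, with a median of -1.04, whereas the zinc finger stretch turned. Their WT level per kb was 47.6 and their KO level 15.2, both below those of the stretch. The 17 numbered Zfp regions inside the window, from Zfp600, Zfp534 and Zfp933, had a median of -0.54 in the authors' deposited table, with 15 of them higher under median-ratio scaling. Their log2 fold changes ran from -2.23 to 0.58 in the authors' deposited table. The difference between the cluster and zinc finger genes elsewhere lies in the contrast that chose the window and was not tested.

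Gm13152 carried more listed bases than any other symbol in the window. Its 69 regions cover 170.6 kb, 57 lower and 12 higher, with the median log2 fold change at -0.38 in the authors' deposited table and a range of -0.79 to 0.55, and all 69 are higher under median-ratio scaling. The summed normalised count was 22318, 14646 and 17484 in KO, against 24871, 21353 and 25228 in WT. The first KO sum lay inside the WT range. KO and WT values did not overlap in 17 of the 69 regions (24.6%), 16 of them with KO below, against 74.4% of all listed regions.

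Most of these 69 regions do not lie in Zfp982 by the RefSeq annotation. The table gives Gm13152 a span of 337.6 kb (chr4:147175866-147513420), while RefSeq gives Zfp982 72.95 kb (chr4:147443114-147516064). Only 12 of the 69 regions overlap RefSeq Zfp982, whereas 46 overlap the zinc finger gene Zfp978 and 5 overlap Zfp988, while 9 overlap no RefSeq gene. RefSeq gives Zfp978 a wide span too, 267.1 kb, and the span of Zfp988 lies within it. A region can therefore count for both. The 12 regions in RefSeq Zfp982 were 11 lower and 1 higher as deposited, all 12 being higher under median-ratio scaling, with a median of -0.45 in the authors' deposited table. They summed to 4178, 2094 and 3058 in KO and 4586, 3683 and 4371 in WT. The 57 others had a median of -0.37 in the authors' deposited table. The symbol therefore stands for a block of several copies, so its values cannot be ascribed to a single copy.

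The longest Gm13152 region within RefSeq Zfp982, chr4:147465101-147473000, had 586, 307 and 424 normalised counts in KO, against 693, 621 and 710 in WT. All KO values were below all WT values, and the log2 fold change in the authors' deposited table was -0.62, against 0.31 when computed with median-ratio scaling. The single higher region, chr4:147464101-147465300, overlaps it by 200 bases and had 143, 64.5 and 87.4 in KO and 72.7, 68.9 and 60.2 in WT, at 0.55 in the authors' deposited table. There the first KO value was high and the second KO value lay inside the WT range.

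The strongest member by WT mean, chr4:147387201-147401300, is assigned to Gm13152 and overlaps RefSeq Zfp978. It had 2894, 1873 and 2159 normalised counts in KO and 2989, 3211 and 3645 in WT, and stands at -0.51 in the authors' deposited table, with no overlap. The region chr4:147174301-147188900 at the table's Gm13152 start had 1432, 1095 and 1357 in KO and 2129, 2151 and 2455 in WT, at -0.79 in the authors' deposited table, also without overlap. Among the 6 members with the highest WT means, all were lower in KO as deposited and higher under median-ratio scaling, and 2 overlapped between genotypes. One of these, chr4:145438301-145454500, had 2968, 846 and 1100 in KO, against 3022, 2093 and 2848 in WT, so that its first KO value alone reached the WT level. The other, chr4:147506901-147524400 at the end of Zfp982, showed the same split with 2820, 1018 and 1739 in KO and 3077, 2213 and 2914 in WT.

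The other zinc finger copies had medians close to that of Gm13152. By RefSeq names the window has 17 Zfp or Znf genes, of which 4 had lower member regions alone, none had higher ones alone, 6 had both and 7 had no member region under their own symbol (Zfp990, Zfp600, Zfp993, Zfp978, Zfp988, Zfp534 and Zfp933). The other 10 include Gm13152 (Zfp982), and without its 69 regions they had 65, of which 51 were lower and 14 higher, with a median of -0.41 in the authors' deposited table; with median-ratio scaling 63 of the 65 are higher. KO and WT values did not overlap in 25 of the 65 (38.5%), against 74.4% of all listed regions. Znf41-ps, a zinc finger pseudogene, summed to 2020, 1614 and 1836 in KO and 2930, 2587 and 2989 in WT over its 5 regions. Gm13157 (Zfp984) summed to 1742, 1110 and 1559 in KO and 2562, 1935 and 2281 in WT over 9 regions, all lower as deposited and 7 higher under median-ratio scaling. In these genes no KO sum reached a WT sum.

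In other copies the first KO value broke the separation. Gm13154 (Zfp985) summed to 2102, 760 and 1213 in KO and 1789, 1327 and 1803 in WT over 10 regions, 6 lower and 4 higher as deposited and all 10 higher under median-ratio scaling. Rex2 summed to 1712, 873 and 1095 in KO and 1759, 1533 and 1704 in WT over 7 regions, 4 lower and 3 higher as deposited and 6 higher under median-ratio scaling. The first KO sum lay above the WT sums for Gm13154 and inside their range for Rex2, and the other two lay below them all. Gm13251 (Zfp992), with the highest level per kb among these genes, summed to 2637, 1996 and 1969 in KO and 3097, 2766 and 2978 in WT, with no overlap. Across the further 5 symbols, Gm13139 (Zfp991), Gm13051 (Zfp987), Gm13242 (Zfp980), Gm13247 (Zfp981) and 2610305D13Rik (Zfp979), medians lay between -0.51 and -0.31 in the authors' deposited table, and with median-ratio scaling every region of the 5 is higher. The table places Gm13139 and Gm13247 at 2 positions each.

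**Figure D4:**
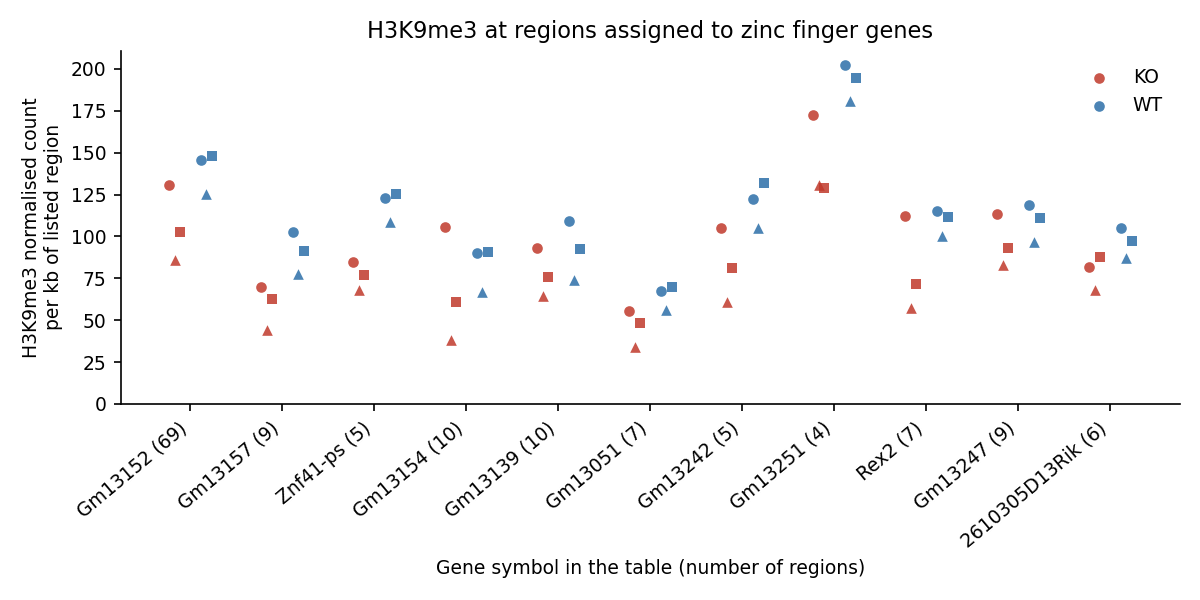
H3K9me3 normalised count per kb of listed region (y axis, starting at 0) for each listed KO value (red) and WT value (blue) at the regions of 11 zinc finger gene symbols (x axis, number of regions in brackets; circle, triangle and square stand for places 1 to 3 in the list). The second and the last KO value lie below all WT values at Gm13152 and Gm13157, while the first KO value of Gm13154 is the highest of its 6; under median-ratio scaling all but 3 of these regions are higher in KO.

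The widest members were all lower as deposited, though most were higher under median-ratio scaling. The 39 members of 5000 bases or more all lie in the zinc finger stretch and cover 376.8 kb. Their median log2 fold change was -0.62 in the authors' deposited table. Of the 39, 20 (51.3%) did not overlap, against 74.4% of all listed regions. With median-ratio scaling 36 of these 39 were higher, with a median of 0.33. The 334 narrower members of the stretch were 258 lower and 76 higher as deposited, and 330 higher under median-ratio scaling, with a median of -0.42 in the authors' deposited table. Higher regions of the stretch were shorter, with a median length of 1200 bases and a median KO mean of 99.2 against a WT mean of 69.6. The lower ones had a median length of 1700 bases, with 127 in KO and 173 in WT. Per kb, the medians of the higher regions were 75.0 in KO and 52.6 in WT. Those of the lower regions were 64.5 in KO and 92.2 in WT, so the higher regions were weaker per kb in WT only. In the higher regions the median log2 ratio to the WT mean was 0.92 for the first KO value, 0.03 for the second and 0.42 for the last.

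The lowest fold among the members of the zinc finger stretch was at its far edge. The region chr4:147814901-147829100 is assigned to Rps19-ps3, a ribosomal protein pseudogene, and also overlaps Zfp933. It had 217, 199 and 575 normalised counts in KO, against 750, 943 and 983 in WT. Its log2 fold change, -1.43 in the authors' deposited table, is the lowest among the members of the stretch. The numbered Zfp regions of the window, left out of the members, reached -2.23 in the authors' deposited table. At the Rps19-ps3 region no value overlapped, and it stays lower under median-ratio scaling at -0.75. In this region the first KO value was far below WT. Gm13212 had 642, 345 and 384 in KO and 957, 751 and 879 in WT at its single assigned region, and 4933438K21Rik had 1516, 796 and 762 in KO and 1631, 1658 and 1715 in WT. Neither overlapped, though the first KO value of 4933438K21Rik came close to WT. The 3 regions of 1700095A21Rik had a median of -0.44 in the authors' deposited table, and with median-ratio scaling these 3 and the regions of Gm13212 and 4933438K21Rik turn higher.

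Many members have no gene symbol in the table. Of 284 such regions, 75 overlap a RefSeq zinc finger gene, 57 of them Zfp993, and 53 overlap a vomeronasal receptor pseudogene of the Vmn2r family, 14 being in both. No RefSeq gene overlaps 133 of them. With all members counted, 187 of 485 overlap a RefSeq zinc finger gene. The 284 regions were 190 lower and 94 higher by sign, with a median of -0.45 in the authors' deposited table, and 276 of them are higher under median-ratio scaling. The largest fold among them in the stretch, 1.16 in the authors' deposited table, was at chr4:145730301-145731300 in Vmn2r-ps15, with 127, 37.5 and 43.7 in KO and 21.3, 32.8 and 39.2 in WT. The first KO value there was far above the rest, and the second KO value lay inside the WT range.

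The PRAME and AADAC stretch went the other way. PRAME family genes, among them the oocyte-expressed Oog genes, encode leucine-rich repeat proteins of the germline and early embryo, and AADAC-like proteins belong to an esterase family. Of its 100 members 89 were higher and 11 lower, with the median log2 fold change at 0.69 in the authors' deposited table that grows to 1.58 under median-ratio scaling. The summed normalised count was 6745, 5581 and 6532 in KO and 4294, 4392 and 4579 in WT, and the KO sums were above all WT sums. KO values were above all WT values in 57 regions and below in 8. KO and WT values did not overlap in 65.0% of the 100 members, against 74.4% of all listed regions. Outside the window 70.3% of the higher regions were above all WT values, against 57 of the 89 higher ones here. Levels were low, with a median of 45.4 normalised counts per kb in KO and 28.7 in WT.

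All 7 AADAC genes of the window had higher regions and no lower one. Their 15 regions had a median of 0.73 in the authors' deposited table, and in 14 of them the KO values lay above all WT values, as they did in 20.2% of all listed regions and 70.3% of the higher ones outside the window. Aadacl3, for instance, had 138, 149 and 144 normalised counts in KO, against 70.9, 96.8 and 95 in WT, at chr4:144452001-144454800. Of 9 PRAME family genes, 7 had higher regions alone, Pramel15 (Gm13125) had a single lower one at -0.60 in the authors' deposited table, and Pramel30 had none. Pramef12 (Pramel13) had 5 regions, all higher, with 73.9, 61.5 and 79.0 in KO and 39.0, 33.6 and 45 in WT at chr4:144405001-144406500. KO and WT did not overlap there, but they did in 2 of its 5 regions. Oog3, 1700012P22Rik and Gm13102 had 3, 4 and 3 regions, all higher.

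The highest fold of the window was at chr4:144075901-144076900, outside RefSeq genes, with 30.6, 34.9 and 43.7 normalised counts in KO and 17.7, 9.84 and 10.2 in WT. Its log2 fold change was 1.53 in the authors' deposited table and the groups did not overlap, at low counts. The TNF receptor gene Tnfrsf1b had 2 regions, at 0.96 and 0.89 in the authors' deposited table, both above all WT values. Its neighbour Tnfrsf8, which encodes CD30, had a lower region at -0.69 and a higher one at 0.61 in the authors' deposited table. The lowest value of this stretch, -1.44 in the authors' deposited table, was in Vps13d, with 17.8, 16.6 and 33.6 in KO and 70.9, 66.4 and 47.1 in WT.

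The distal stretch had few regions, and all 12 were lower. Their median log2 fold change was -1.27 in the authors' deposited table, and all 12 stayed lower under median-ratio scaling, with a median of -0.51. KO and WT values did not overlap in 9 of the 12 (75.0%), near the 74.4% of all listed regions. The summed normalised count was 211, 263 and 564 in KO, against 720, 928 and 794 in WT, so the first KO value was the lowest here. Casz1, which encodes a zinc finger transcription factor with roles in neural and heart development, had 6 regions between -1.42 and -0.79 in the authors' deposited table. They summed to 120, 147 and 273 in KO and 369, 483 and 407 in WT. Of the 6, 5 (83.3%) did not overlap, against 74.4% of all listed regions. Ptchd2 (Disp3), a gene of the dispatched family, had 3 regions between -1.22 and -0.94 in the authors' deposited table. The lowest value among the members, -1.85 in the authors' deposited table, lay in Gm32603. That region had 0, 17 and 35.3 in KO and 47.9, 73.0 and 68.2 in WT. The numbered Zfp regions of the window, left out of the members, reached -2.23 in the authors' deposited table. The natriuretic peptide genes Nppa and Nppb, the collagen enzyme gene Plod1 and Mtor had no listed region.

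At the edges of the window the first regions inside were at 0.68 and -0.58 and the last ones at -1.32 and -0.79 in the authors' deposited table. Just outside, the nearest were at 1.18 and 0.68 before it and at -2.26 and -1.08 after it, the last pair in Ube4b, in the authors' deposited table. The longest stretches without a member were 435.7 kb and 380.3 kb, both in the distal part, and 342.3 kb before Tnfrsf1b.

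H3K27ac, which played no part in choosing the window, was compared per library. Peaks in the window numbered 42, 71 and 38 in KO replicates 1 to 3 and 35, 70 and 42 in WT, or 50.3 ± 18.0 against 49.0 ± 18.5 (SD, n = 3 each). An exact two-sided permutation test of the difference of 1.33 peaks gave p = 0.8, where 0.1 is the smallest p that 3 against 3 allow. As a share of all peaks of a library the window held 0.219 ± 0.0977% in KO and 0.212 ± 0.116% in WT, with an exact permutation p of 1. Members overlapped by a peak numbered 3, 5 and 18 in KO and 0, 14 and 14 in WT, or 8.67 ± 8.14 against 9.33 ± 8.08 (n = 3 each, exact permutation p = 1). The p adjusted over these 3 tests was 1 for each. The genotypes overlapped in all 3 measures, and no difference could be detected at this number of animals, which does not show that they were alike.

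Peak lists differed widely in length between libraries. All peaks numbered 26344, 42651 and 11446 in KO and 31912, 37289 and 12446 in WT, and the depth behind them is unknown. Peaks in the zinc finger stretch numbered 12, 15 and 27 in KO and 4, 26 and 26 in WT. The shortest lists, of replicate 3 in both genotypes, had the largest share of their peaks there, 0.236% in KO and 0.209% in WT, against at most 0.0697% in the 4 other libraries. A number in the sample titles, whose meaning the labels do not state, splits the libraries into replicate 1 and replicates 2 and 3. Within the first set the KO library had 3 overlapped members and the WT library 0. Within the second the mean was 11.5 in KO and 14 in WT, so the sign of the difference turned between the sets. Peaks in the window turned likewise, with 42 in KO and 35 in WT in the first set and means of 54.5 in KO and 56 in WT in the second. So did the share of all peaks, at 0.159% in KO and 0.11% in WT, against means of 0.249% in KO and 0.263% in WT.

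**Figure D5:**
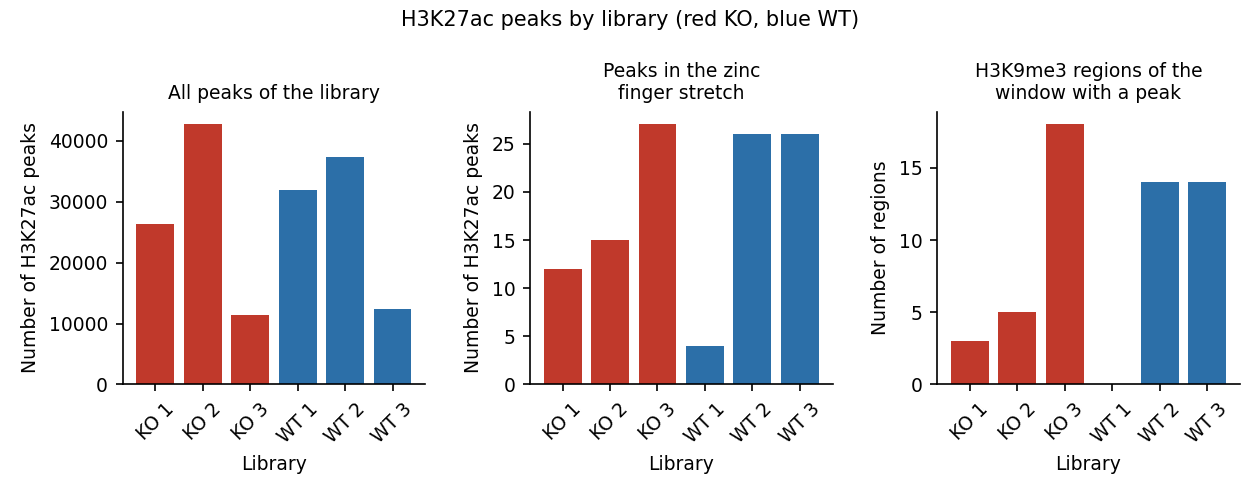
Number of H3K27ac peaks in each library (left), of those in the zinc finger stretch (middle) and of members overlapped by a peak (right), for KO (red) and WT (blue) replicates 1 to 3, with bars from 0. KO replicate 3 has 18 overlapped members from the shortest list of 11446 peaks, and WT replicate 1 has 0 from a list of 31912.

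H3K27ac did occur inside the H3K9me3 regions of the cluster. In 1 or more libraries a peak overlapped 37 members (7.63%), against 2.37% of all listed regions, and all 37 lie in the zinc finger stretch. The members had a median length of 1500 bases and all listed regions one of 1400, but 39 members had 5000 bases or more. A longer region leaves more room for a peak, and the overlapped members include some of 12500, 9600 and 9400 bases. The part of length in the share was not tested. Of the 37 overlapped members, 36 were lower in H3K9me3 as deposited, a direction that median-ratio scaling turns for most of the stretch. As deposited, 79.6% of all members of the stretch and 71.1% of all listed regions were lower. All 39 members of 5000 bases or more were lower too. A link between the peaks and the H3K9me3 direction was not tested. Only 8 had a peak in 2 or more libraries of a genotype. The region over Gm13251, chr4:146453201-146462800, had peaks in KO replicates 2 and 3 and WT replicate 3, and its H3K9me3 was 1719, 1306 and 1282 normalised counts in KO and 2125, 1908 and 1954 in WT. A region in Gm13242 (Zfp980), chr4:145678101-145679800, had peaks in KO replicates 2 and 3 and in no WT library, with H3K9me3 of 206, 166 and 216 in KO and 266, 211 and 247 in WT. A region of Gm13152 within RefSeq Zfp982, chr4:147450301-147457500, had them in KO replicates 2 and 3 and WT replicate 2. Another, chr4:147328001-147337400 in Zfp978 and Zfp988, had them in KO replicate 3 and WT replicates 2 and 3. The remaining 4 had no gene symbol in the table; Zfp993 and Gm21978 were among the RefSeq genes they overlap.

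Merging the peaks of the 6 libraries gave 148 H3K27ac regions in the window. None had a peak in all 3 libraries of a genotype and none of the other, where 0.124% of all merged regions had one in KO only and 0.046% in WT only. A peak in 2 or more KO libraries and no WT library was found at 3 regions, and the reverse at 2. The 3 KO regions lay in Zfp980, in Zfp992 (Gm13251) and at a table start of Gm13139. Peaks in all 6 libraries were found at 5 regions, at Zfp933, Mfn2, Clcn6, Tardbp and between Exosc10 and Mtor. In the zinc finger stretch 50 of 71 merged regions were seen in a single library.

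The start sites of 16 zinc finger genes, taken from RefSeq or the table after the values had been seen, were looked at within 1 kb. KO replicates 1 to 3 had a peak at 3, 2 and 2 of these genes, and each WT library had one at 1 of them. Zfp933 accounts for that 1 in every WT library and has a peak in all 6 libraries. The others were Gm13139 in KO replicates 1 and 2, Gm13157 in KO replicate 1 and Rex2 in KO replicate 3. No test was made, since the set was chosen on these values.

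Cell identity was read from H3K27ac peaks at or within 1 kb of marker genes. Of 10 neural progenitor markers, 4 (Nes, Pax6, Fabp7 and Sox9) had a peak in all 6 libraries and the other 6 in some. Among ganglionic eminence markers, Dlx2, Gsx2 and Gad2 had no peak in any library, while Dlx1 had one in 2 libraries. All 5 cortical excitatory markers were at 0. Mog, Aif1, Cx3cr1, Hbb-bt, Cdh5, Kdr and Pdgfrb, from the glial, blood and vascular lists, were also at 0. Others of these lists had peaks: Olig1 and Pecam1 in all 6 libraries, Aqp4 in 5, Olig2 in 4, Csf1r and Tek in 3, and Gfap and Ptprc in 2.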

How the data were processed

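The members, stretches and gene lists were chosen with earlier results of these data known. H3K9me3 came as 1 table of KO against WT over windows of 1000 bases, with 3 normalised counts per genotype joined in 1 cell, per the file headers; their scaling and the comparison's tool, not given in the sources used here, remain unknown. The authors' group means are a signal, their enrichment is a ratio, their fold changes are log2 of KO over WT, and each region has a deposited p-value with its adjusted form, per the file headers. H3K27ac came as 1 deposited MACS2 peak list per library, in which the authors' score, fold enrichment and −log10 p or q value describe each peak. Bowtie2 2.3.4.3, MACS2 and mm10 are named in the submitters' processing notes. Each replicate is its own animal, per the series' design text.

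Rows were selected by chromosome, start and symbol with Python 3.11.15 and pandas 2.3.3. The authors' deposited normalised counts at each listed position fell on multiples of a step per read (tolerance 0.1 reads, met by 100% of low values), which gave 41388, 148583 and 91545 reads in the members for KO and 64777, 120271 and 157497 for WT. All 37 gene symbols of the members matched RefSeq GRCm38.p6, which also gave the promoter sequences. Promoters were aligned locally with Biopython 1.88. H3K27ac peaks were merged where they overlapped by 1 base; merging was tested on simulated peaks. KO and WT libraries were compared with exact two-sided permutation tests. The genes and regions named are Gm13152, the 20 symbols with the most listed bases, the 6 lowest and 6 highest fold changes, the 6 highest WT means, regions with H3K27ac in 2 or more libraries of a genotype, and the list members; other regions were chosen after their values were seen. Some genes of the lists are not reported here. Alternatives covered scaling, thresholds, window borders, overlap rules and left-out libraries.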

Additional observations from a re-analysis of the deposited data

How the results depend on the processing

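The split of the members into lower and higher and their medians depend on scaling. Median-ratio scaling, partly added after seeing the data, gave 21 lower and 464 higher members, a median log2 fold change of 0.52 for the members, 0.47 for the zinc finger stretch and 1.58 for the PRAME and AADAC stretch. The factors differ between the listed values, so the shift differs between regions, and the cause of these changes was not tested. Leaving out 1 listed KO or WT value in turn moved the members' median between -0.47 and -0.27. Leaving out 1 listed KO value in turn (no WT value was left out here) moved the median of the zinc finger stretch between -0.56 and -0.33 and that of the PRAME and AADAC stretch between 0.64 and 0.79. For H3K27ac, leaving out 1 library in turn moved the KO minus WT difference between -9 and 11.8 peaks, between -0.0487 and 0.0706 percentage points of share, and between -5.33 and 2.17 overlapped members; regions with a peak in KO only or in WT only numbered 0 to 2 each. The sign of each H3K27ac difference therefore rests on single libraries: it turned to -9, -5.67 and -2.17 peaks without KO replicate 2, WT replicate 1 and WT replicate 3, to -0.0487, -0.0433 and -0.00427 points without KO replicate 3, WT replicate 1 and WT replicate 2, and to 2.17, 1.17, 1.67 and 1.67 members without KO replicates 1 and 2 and WT replicates 2 and 3. With the title number as a replicate block the differences were 1.33 peaks (exact permutation p = 0.833), 0.00768 points (p = 1) and -0.667 members (p = 1). No paired analysis was possible for H3K9me3 because the listed values carry no animal. Of all values computed under the alternatives, 67 kept their direction and stayed within the spread or within 1.5 times the count, 8 moved further and 12 changed direction. Depth was lowest for the first KO value, at a median of 44 reads per member.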
